A study of Homo sapiens with 8 samples.

Results

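Cytosolic ribosomal proteins are the protein parts of the ribosome that translates messages in the cytoplasm. Their genes were taken here as every row listed as mRNA in the table of 8 libraries whose symbol is RPL or RPS with a number, an A or X form of one, RPSA, or one of the stalk proteins RPLP0, RPLP1 and RPLP2. The rule used names and no measured value, and found 77 genes of the 26716 in the table, 46 of the large subunit and 31 of the small subunit. All 77 had enough counts to be tested, among 17715 genes that did.

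The libraries hold poly(A) RNA from the human liver cancer line HepG2, and the study asked how a miR-552-3p mimic changes transcripts and whether lowering importin8, a nuclear import receptor encoded by IPO8, alters that. There were 2 libraries in each of 4 groups. The miR-552-3p group had the mimic at 1 nM with a control siRNA at 30 nM, and the siIPO8-miR-552-3p group had the mimic at 1 nM with an importin8 siRNA at 30 nM. The siIPO8-NC group had a control mimic at 1 nM with the importin8 siRNA at 30 nM, and the NC group had the control mimic at 1 nM with the control siRNA at 30 nM. All cells were lysed 72 h after transfection, and all groups are 1 established line.

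A ribosome takes 1 copy of nearly every one of these proteins, so the genes work as a set whose products are needed in matched amounts. Their messages are short, abundant and long-lived, and in vertebrates most start with a run of pyrimidines, the TOP motif, through which the kinase mTORC1 and the RNA-binding protein LARP1 control their translation and stability. New ribosomal proteins are carried into the nucleus by importins and guarded by dedicated chaperones, and RPL5 and RPL11 that are not built into ribosomes bind the ubiquitin ligase MDM2.

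The mimic copies hsa-miR-552-3p, whose mature sequence is encoded at chr1:34669614-34669634 on the minus strand (GRCh38.p14, RefSeq). Its mature sequence is shown because its seed, bases 2 to 8 in capitals, is the part by which a microRNA usually pairs with its targets.
hsa-miR-552-3p: aACAGGUGacugguuagacaa
The DNA letters that pair with this seed, CACCTGT, or the same site read on the other strand, ACAGGTG, were in 0 of the 62 ribosomal protein genes with a promoter in the RefSeq table (250 bases before to 50 after the first listed start), against 4.11% of the promoters of 27305 genes. In the longest annotated 3' UTR of each gene (GENCODE, GRCh38), CACCTGT was present for 10 of the 77 genes, or 13%, with a median UTR length of 478 bases, against 16.5% of 19652 protein-coding genes with a median length of 1031 bases. The 10 were RPL13, RPL13A, RPL14, RPL23, RPL37, RPL37A, RPS15A, RPS19, RPS29 and RPS9. Apart from RPL13A, with 493 bases, each of these UTRs was longer than the whole message implied by the deposited values. In miR-552-3p replicate 1 the implied message was 551 bases for RPL37, against an annotated UTR of 7242 bases. It was 326 bases for RPS29, against 6828, and 841 bases for RPL14, against 6355. Whether the measured messages hold these sites was not tested.

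The start regions of 8 of the genes are shown because they hold the run of C and T typical of these genes, and because they cover genes that were higher, lower or not called with the mimic. Each line holds the 15 bases before and the 15 bases from the first listed start on the gene's strand (GRCh38.p14, RefSeq), with the longest run of C and T near the start in capitals. RPL35 is at chr9:124861943-124861972 on the minus strand, RPS18 at chr6:33272060-33272089 on the plus strand, RPL24 at chr3:101686704-101686733 on the minus strand and RPS10 at chr6:34426055-34426084 on the minus strand. RPS27 is at chr1:153990747-153990776, RPL28 at chr19:55385917-55385946, RPL13A at chr19:49487593-49487622 and RPL31 at chr2:101002274-101002303, all on the plus strand.
RPL35: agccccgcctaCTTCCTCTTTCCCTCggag
RPS18: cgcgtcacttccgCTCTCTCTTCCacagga
RPL24: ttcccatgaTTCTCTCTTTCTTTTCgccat
RPS10: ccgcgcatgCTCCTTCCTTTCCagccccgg
RPS27: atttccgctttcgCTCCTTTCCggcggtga
RPL28: tcgcccctcgCCTTCCTCTTTCCgtctcag
RPL13A: cgacaaaaCCTCCTCCTTTTCCaagcggct
RPL31: acaatccttcgcgCTCTTCCTTTCCaactt
A run of at least 8 C or T bases within 5 bases of the start was found in 47 of 62 ribosomal protein genes (75.8%, median run 11 bases), against 11.3% of the promoters in the table (median run 4 bases). Among these 62 such a run stood in 39 of the 51 genes that were higher with the mimic under control siRNA, in both of the genes that were lower and in 6 of the 9 that were not called.

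The libraries held 21608563 to 22102373 expected counts each. IPO8 had 7.64 and 8.3 CPM in siIPO8-miR-552-3p and 11.3 and 11.5 CPM in siIPO8-NC, against 25.4 and 24.6 CPM in miR-552-3p and 34.6 and 33.3 CPM in NC, where CPM are counts scaled to a common library size. All 10 markers of hepatocytes and HepG2 cells, ALB, AFP and APOA1 among them, were detected in every library. Their summed level was 47512 and 48465 CPM in miR-552-3p, 72646 and 68773 in siIPO8-miR-552-3p, 63616 and 61556 CPM in siIPO8-NC, and 65939 and 59808 CPM in NC. The single markers moved both ways: against NC, 7 fell and 1, FGB, rose in miR-552-3p, and 5 rose and 3 fell in siIPO8-NC. In siIPO8-miR-552-3p against siIPO8-NC 2 rose and 4 fell, although the sum was higher. The 10 markers of other cells (fibroblast, endothelial, blood and biliary cells) summed to 1090 and 1072 CPM in miR-552-3p, 507 and 497 in siIPO8-miR-552-3p, 427 and 426 CPM in siIPO8-NC, and 637 and 643 CPM in NC, with at most 2 of them at 0 in any library. These sums hold opposite moves: against NC, 4 of 9 tested rose and 4 fell in miR-552-3p, and 3 rose and 4 fell in siIPO8-NC. KRT19 had 676 and 647 CPM in miR-552-3p, 174 and 170 CPM in siIPO8-miR-552-3p and 68.5 and 66.3 CPM in siIPO8-NC, against 35.3 and 27.3 CPM in NC. CD68 had 122 and 112 CPM in miR-552-3p, 84.4 and 78.8 CPM in siIPO8-miR-552-3p and 79 and 58.6 CPM in siIPO8-NC, against 5.26 and 8.06 CPM in NC. SOX9 was lower with 165 and 182 CPM in miR-552-3p, 139 and 138 in siIPO8-miR-552-3p and 170 and 189 CPM in siIPO8-NC, against 384 and 410 CPM in NC. The part of these marker shifts in the results on ribosomal proteins was not tested, and in bulk RNA fewer cells of a kind and less RNA per cell cannot be told apart.

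The NC libraries stood apart from each other in these genes, though not only in them. In NC, 73 of the 77 genes were higher in replicate 1 than in replicate 2, with a median difference of 0.31 on the log2 scale, while the other tested genes had a median of 0.02. The miR-552-3p replicates differed in the same way by less, with 69 genes higher in replicate 1 and a median of 0.14. In siIPO8-miR-552-3p, 22 of the 77 were higher in replicate 1, and in siIPO8-NC 53 were, with medians of -0.02 and 0.04. Some other abundant messages also differed between the NC replicates, with AFP at 9505 and 7495 CPM and EEF1A1 at 5434 and 4421 CPM. Others, such as APOB at 13279 and 14656 CPM, went the other way. Over all genes tested, replicates also lay farthest apart in NC, with a chi-square per degree of freedom of 10.1. Nothing in the labels sets NC replicate 2 apart, so counts of called genes are given below with and without single libraries.

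**Figure D1:**
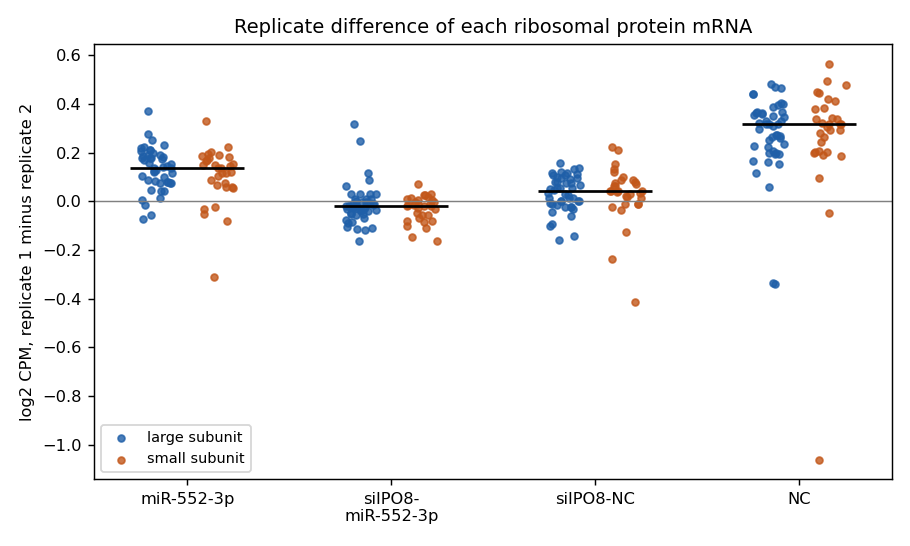
The vertical axis gives the log2 CPM of replicate 1 minus replicate 2 for each of the 77 genes, coloured by subunit, in the 4 groups, with a black line at the median. Most points of NC lie above 0, with a median of 0.31, and those of siIPO8-miR-552-3p lie around 0, with a median of -0.02.

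Ribosomal protein messages were a larger share of the RNA in every treated library than in NC. They took 3.94 and 3.56% of the counts in miR-552-3p, 3.47 and 3.56% in siIPO8-miR-552-3p and 3.43 and 3.35% in siIPO8-NC, against 3.10 and 2.64% in NC. Both libraries of each treated group were above both NC libraries. Their summed level was 39739 and 36343 CPM in miR-552-3p, 36101 and 36488 in siIPO8-miR-552-3p, 33914 and 32740 CPM in siIPO8-NC, and 30832 and 24959 CPM in NC. The single gene with the most counts took 7.39 and 8.58% of the library in miR-552-3p, 6.9 and 7.34% in siIPO8-miR-552-3p and 8.05 and 8.92% in siIPO8-NC, against 11.3 and 11.6% in NC. With that gene left out of the total, the ribosomal protein share was 4.25 and 3.90% for miR-552-3p, 3.73 and 3.84% in siIPO8-miR-552-3p and 3.73 and 3.68% in siIPO8-NC, against 3.5 and 2.98% in NC.

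The balance between the subunits varied little. The summed CPM of the 46 large subunit genes was 1.42 and 1.42 times that of the 31 small subunit genes in miR-552-3p, 1.45 and 1.44 times in siIPO8-miR-552-3p, 1.43 and 1.43 times in siIPO8-NC and 1.42 and 1.43 times in NC.

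**Figure D2:**
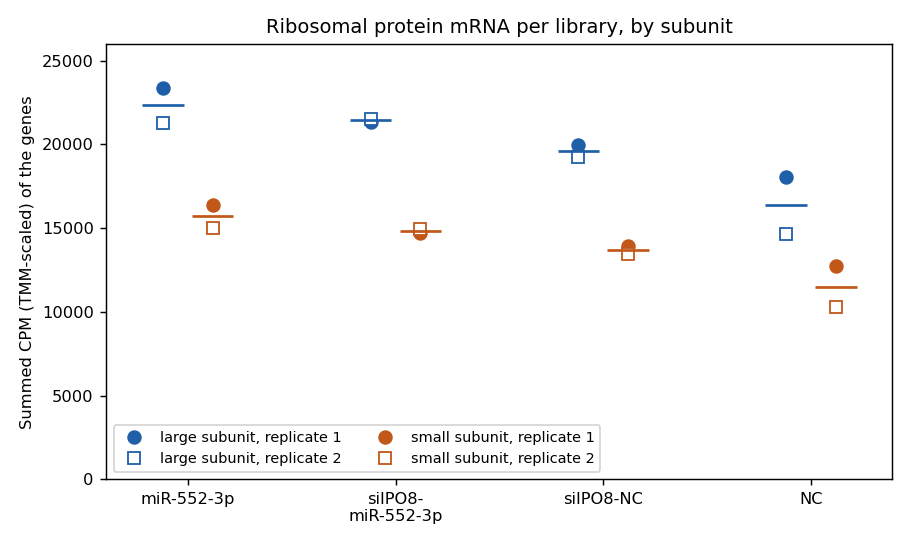
The vertical axis gives the summed CPM of the large subunit genes (blue) and of the small subunit genes (orange) in each library of the 4 groups, with replicate 1 filled, replicate 2 open and a line at the mean. Both subunits are lowest in NC, where the replicates lie farthest apart, and the ratio of the subunits stays between 1.42 and 1.45.

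Per length of message, the genes were among the most abundant of the cell but spread widely. In FPKM, a read count divided by message length and library size, they had a median of 620 over the 8 libraries, against 3.97 for the other tested genes, and 73 of 77 were above 100 FPKM. The highest were RPS2, which lines the path of the message into the ribosome, at 1667 FPKM, RPS15A at 1614, RPS6, the protein phosphorylated by S6 kinase, at 1490, RPL19 at 1248 and RPL13A at 1108. The lowest were RPS28 at 5.52 FPKM, RPL9 at 26, RPL13 at 32.9, RPS26, which lies where the message leaves the ribosome, at 71.2, and RPLP0, the base of the stalk that recruits elongation factors, at 131. These genes have processed pseudogenes and near copies, and expected counts divide shared reads among them, so the levels of the lowest genes are uncertain. The largest near copy in the table, RPSAP58, had 3395 to 5478 expected counts per library.

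The first comparison was of the mimic with control siRNA in place, miR-552-3p against NC. Of the 77 genes 60 rose and 3 fell, calling a gene at a Benjamini-Hochberg adjusted p under 0.05 in edgeR's quasi-likelihood test, and 14 were not called. This contrast called many genes of any kind: 58.4% of the 17715 tested, 28.9% higher and 29.5% lower. The median log2 fold change was 0.48 over the 77 genes, a fold of 1.39, and -0.01 over all genes tested. Both mimic libraries were above both NC libraries for 63 genes and below both for 3, where 39% and 39.6% of all genes tested were. In the large subunit 36 of 46 rose and 3 fell (median 0.53), and in the small subunit 24 of 31 rose and none fell (median 0.46). Leaving out each library in turn left 44 to 70 genes called higher, 51 without NC replicate 2 and 44 without miR-552-3p replicate 1.

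Among the genes that rose most, RPL35, a protein at the mouth of the tunnel through which new chains leave, had 418 and 378 CPM in miR-552-3p, against 218 and 185 CPM in NC. The groups lay well apart, and the log2 fold change was 0.98 (SE 0.09; edgeR adjusted p = 5.4e-06). RPS18, a protein of the head of the small subunit, had 558 and 485 CPM in miR-552-3p, against 312 and 224 CPM in NC. Its log2 fold change was 0.96 (SE 0.15; edgeR adjusted p = 0.00058), with the NC replicates well apart. RPL7 had 662 and 573 CPM in miR-552-3p, against 364 and 291 CPM in NC, and rose by 0.91 on the log2 scale. RPL24, which reaches across to the small subunit, had 323 and 279 CPM in miR-552-3p, against 185 and 154 CPM in NC, and rose by 0.83. RPL38, needed in mouse for translation of Hox messages, had 198 and 176 CPM in miR-552-3p, against 122 and 88.5 CPM in NC, and also rose by 0.83. In none of these 5 genes did the groups overlap.

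The 3 genes that fell, against the 60 that rose, are all of the large subunit. RPL30, which in budding yeast binds and represses its own transcript, had 171 and 151 CPM in miR-552-3p, against 252 and 197 CPM in NC, a log2 fold change of -0.48 (SE 0.11; edgeR adjusted p = 0.0062). RPL31, a protein near the exit tunnel, had 216 and 205 CPM in miR-552-3p, against 270 and 236 CPM in NC (-0.26; edgeR adjusted p = 0.015). RPL13A, known also from a complex that silences inflammatory messages, had 898 and 783 CPM in miR-552-3p, against 1163 and 915 CPM in NC (-0.31; edgeR adjusted p = 0.045). For each of these genes both mimic libraries were below both NC libraries, by a narrow margin for RPL13A. The call of RPL13A held in only 2 of 8 fits that left out 1 library, those without miR-552-3p replicate 1 (-0.40) and without NC replicate 2 (-0.47), and its value was -0.12 without NC replicate 1. The message length implied by count and FPKM was 825 and 818 bases for RPL13A in miR-552-3p, against 904 and 889 bases in NC, and the part of this shift in its value was not tested. RPL30 lost its call without miR-552-3p replicate 2 (-0.39), and RPL31 without miR-552-3p replicate 2 (-0.23) or NC replicate 1 (-0.16).

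RPL13A lies on chromosome 19 from 49487554 to 49492308 (plus strand), RPL31 on chromosome 2 from 101001715 to 101024032 (plus strand) and RPL30 on chromosome 8 from 98024851 to 98046469 (minus strand), in GENCODE on GRCh38. The 77 genes lie on 21 chromosomes. In the annotation 28 of the 77 (36.4%) hold a small nucleolar RNA gene on their own strand, against 1.28% of 19874 protein-coding genes. Of these 28 genes 20 rose, 2 fell and 6 were not called with the mimic (median 0.41), and of the other 49 genes 40 rose, 1 fell and 8 were not called (median 0.50).

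**Figure D3:**
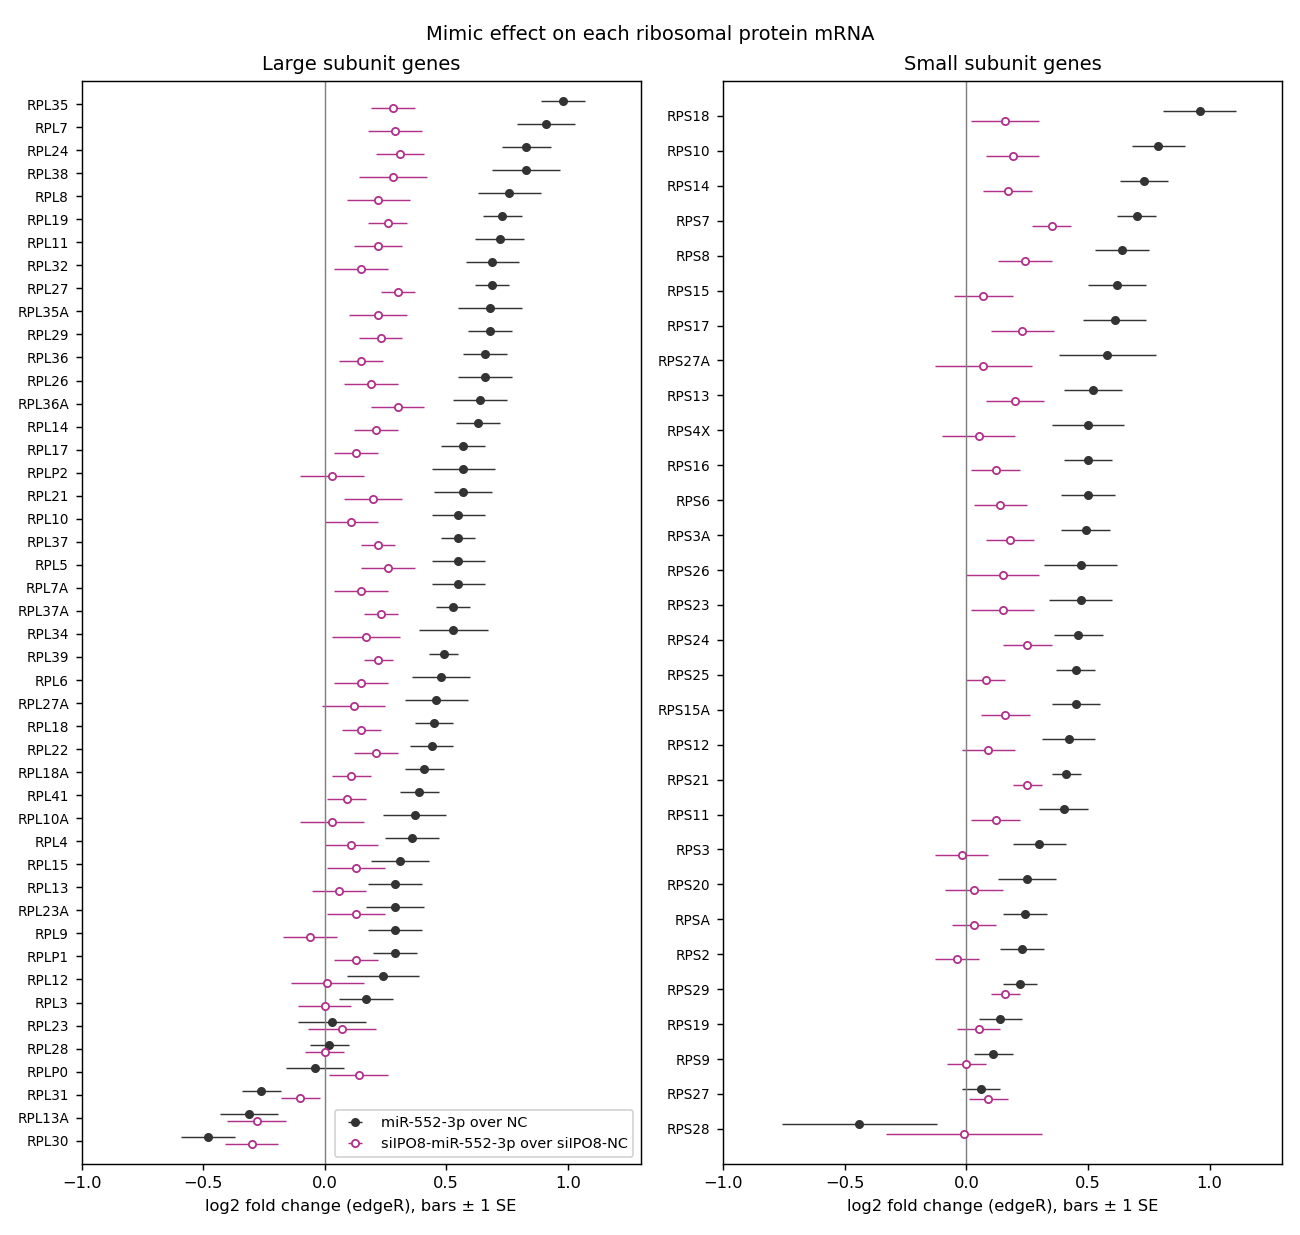
Each row is 1 of the genes of the large subunit (left) or small subunit (right), and the horizontal axis gives the log2 fold change with bars of 1 SE, filled for miR-552-3p over NC and open for siIPO8-miR-552-3p over siIPO8-NC. The filled points run from -0.48 at RPL30 to 0.98 at RPL35, and the open points stay between -0.30 and 0.35.

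By role, the stalk proteins did not move alike. RPLP2 had 437 and 397 CPM in miR-552-3p, against 313 and 251 CPM in NC, and rose by 0.57 on the log2 scale, and RPLP1 rose by 0.29. RPLP0 had 142 and 131 CPM in miR-552-3p, against 124 and 157 CPM in NC, and its value of -0.04 did not pass. The groups overlap for RPLP0, and its value is 0.13 when the counts of its listed pseudogene, RPLP0P2, are added. RPLP0P2 had 438.94 and 404.93 expected counts in miR-552-3p, against 42.15 and 43.89 in NC. Whether these counts are reads of RPLP0 was not tested. RPL10, which joins the large subunit last, rose by 0.55, and RPL10A, the base of the opposite stalk, by 0.37.

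Of the proteins that bind 5S rRNA and MDM2, RPL5 had 769 and 690 CPM in miR-552-3p, against 560 and 436 CPM in NC, a rise of 0.55 on the log2 scale. RPL11 had 682 and 620 CPM in miR-552-3p, against 437 and 353 CPM in NC, a rise of 0.72. RPL23, which can also bind MDM2, had 538 and 461 CPM in miR-552-3p, against 564 and 416 CPM in NC, and did not pass at 0.03. Thus RPL5 and RPL11 were separated between the groups and RPL23 overlapped. RPL3, which lies close to the centre that joins amino acids, had 1028 and 959 CPM in miR-552-3p, against 995 and 776 CPM in NC, and did not pass at 0.17 (SE 0.11).

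In the exit tunnel and on the surface of the large subunit, RPL39, a very short protein that lines the tunnel, rose by 0.49, and RPL23A, a docking site for the signal recognition particle, did not pass at 0.29 (edgeR adjusted p = 0.066). With the counts of its 4 listed pseudogenes added, RPL23A passed at 0.59 (SE 0.10; edgeR adjusted p = 0.00085), and the largest of them, RPL23AP82, had 957.74 and 952.54 expected counts in miR-552-3p, against 97.46 and 105.19 in NC. Whether the added pseudogene counts are reads of RPL23A was not tested. RPL22, whose paralog RPL22L1 can replace it, rose by 0.44, RPL36A by 0.64 and RPL41, the shortest of the proteins, by 0.39. RPL19, which forms a bridge to the small subunit, had 1075 and 1070 CPM in miR-552-3p, against 683 and 609 CPM in NC, and rose by 0.73.

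In the small subunit, several genes known from Diamond-Blackfan anaemia or the 5q- syndrome rose, but not all. RPS14, the 5q- syndrome gene, rose by 0.73, RPS10 by 0.79 and RPS26 by 0.47. RPS10 had 655 and 625 CPM in miR-552-3p, against 418 and 321 CPM in NC, with no overlap. RPS19, the anaemia gene found most often, had 450 and 393 CPM in miR-552-3p, against 409 and 356 CPM in NC. Its groups overlapped, and its value of 0.14 did not pass. RPS6 rose by 0.50, RPS4X by 0.50 and RPS25, which some viral messages need for internal initiation, by 0.45. RPS3, at the entry of the message, rose by 0.30, and RPS27A, made as a fusion with ubiquitin, by 0.58, while RPSA rose by 0.24. RPSA lost its call with the counts of its near copies added (0.24, edgeR adjusted p = 0.051). The calls of RPSA and RPS27A each held in 2 of 8 fits that left out 1 library, and that of RPL9 (0.29) in 1 of 8.

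Among the 14 genes that were not called were RPL3, RPL12, RPL15, RPL23, RPL23A, RPL28, RPLP0, RPS2, RPS9, RPS19, RPS20, RPS27 and RPS28. RPL28 had 304 and 295 CPM in miR-552-3p, against 317 and 275 CPM in NC (0.02, SE 0.08). RPS27 had 327 and 334 CPM in miR-552-3p, against 339 and 294 CPM in NC (0.06, SE 0.08). The mimic libraries lay within the span of the NC libraries for both genes, and both carry the C and T run shown above. RPS28 had 2.2 and 2.73 CPM in miR-552-3p, against 2.16 and 4.51 CPM in NC (-0.44, SE 0.32), too scattered for a direction.

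**Figure D4:**
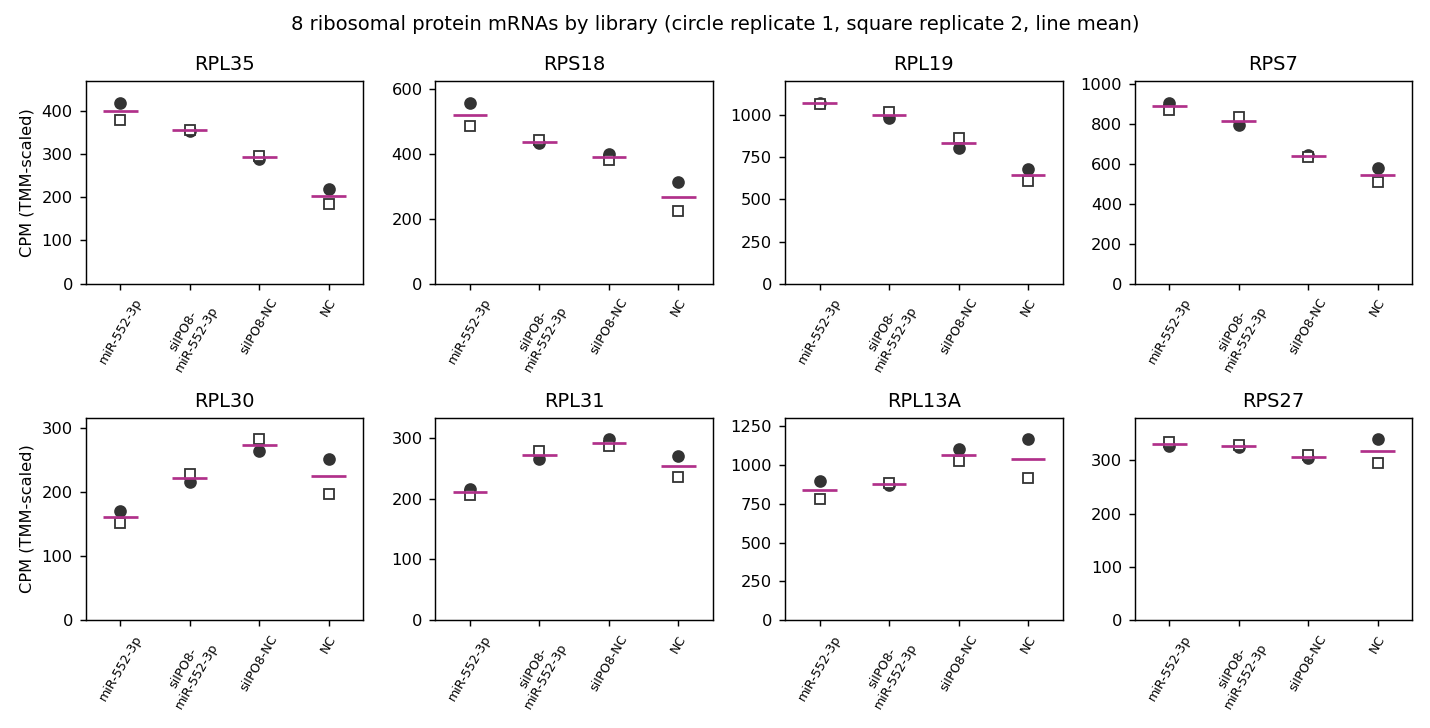
The vertical axes give the CPM of 8 genes in each library of the 4 groups, with circles for replicate 1, squares for replicate 2 and a line at the mean. RPL35, RPS18, RPL19 and RPS7 are highest in miR-552-3p and lowest in NC, RPL30 and RPL31 are lowest in miR-552-3p, and RPS27 is nearly level.

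The second comparison was of the mimic with importin8 lowered, siIPO8-miR-552-3p against siIPO8-NC. Here 9 of the 77 genes rose and none fell in edgeR's quasi-likelihood test, with 19 at an unadjusted p under 0.05, while 31.7% of all genes tested were called, 15% higher and 16.7% lower. The median log2 fold change was 0.15, a fold of 1.11, and 0.00 over all genes tested. Both siIPO8-miR-552-3p libraries were above both siIPO8-NC libraries for 52 genes and below both for 4, where 33.1% and 34.9% of all genes tested were. By subunit, 7 of 46 large subunit genes rose (median 0.15) and 2 of 31 small subunit genes (median 0.12). The count depended on single libraries. It was 1 without either siIPO8-NC library, 4 and 2 without siIPO8-miR-552-3p replicate 1 and 2, 6 without either miR-552-3p library, and 28 and 25 without NC replicate 1 and 2, whose part in this contrast is only in the spread, the scaling and the gene filter. With NC replicate 1 or 2 left out, 2 genes were called lower. DESeq2 called 15 higher and 2 lower, and a fit of the 4 libraries alone called 38 higher and 2 lower.

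The 9 genes were RPS7, RPL24, RPL27, RPL35, RPL19, RPS21, RPL37A, RPL37 and RPL39, and all 9 were also among the 60 that rose with the mimic under control siRNA. None of the 9 calls held in all 8 fits that left out 1 library: those of RPS7 and RPL27 held in 7, and those of RPL19 and RPL37 in 2. RPS7 had 797 and 837 CPM in siIPO8-miR-552-3p, against 643 and 637 CPM in siIPO8-NC, with a log2 fold change of 0.35 (SE 0.08; edgeR adjusted p = 0.0083). RPL24 had 264 and 262 CPM in siIPO8-miR-552-3p, against 214 and 210 CPM in siIPO8-NC (0.31), and RPL27 had 629 and 632 CPM in siIPO8-miR-552-3p, against 509 and 517 CPM in siIPO8-NC (0.30). All 3 genes had tight replicates and separate groups. RPL35 rose by 0.28 and RPL19 by 0.26. RPL36A at 0.30 and RPL7 at 0.29 did not pass (edgeR adjusted p = 0.069 and 0.089).

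At the lower end, RPL30 had 215 and 228 CPM in siIPO8-miR-552-3p, against 264 and 282 CPM in siIPO8-NC, with a value of -0.30 that did not pass (edgeR adjusted p = 0.076). RPL13A had 871 and 881 CPM in siIPO8-miR-552-3p, against 1102 and 1023 CPM in siIPO8-NC, at -0.28 (edgeR adjusted p = 0.10). The groups did not overlap for either gene. RPL31 was at -0.10, RPL9 at -0.06 and RPS2 at -0.04.

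The difference between the mimic effects, the effect with importin8 siRNA minus the effect with control siRNA, was tested as an interaction. It was below 0 for 70 of the 77 genes and above 0 for 7, with a median of -0.33. Of the 77 genes 21 had a called difference, all with a smaller rise under importin8 siRNA, 15 of the large subunit (median -0.33) and 6 of the small subunit (median -0.32). The interaction called 31.3% of all genes tested, 14.2% upward and 17.1% downward. The 27.3% called among these genes, all downward, is below the share called either way and above the share called downward. RPS18 had the lowest value, -0.80 (SE 0.20; edgeR adjusted p = 0.019), with effects of 0.16 and 0.96. RPL35 was at -0.70, RPL7 at -0.63, RPS10 at -0.60 and RPS14 at -0.56. At the upper end RPS28 had a value of 0.42, RPLP0 of 0.18 and RPL30 of 0.17, and none of these passed with all 8 libraries. RPL30 was called upward only in the fit without NC replicate 2, at 0.34, and was at 0 without NC replicate 1. The number of called differences was 59 without NC replicate 1, 18 without NC replicate 2, 19 without miR-552-3p replicate 2, 8 without either siIPO8-miR-552-3p library or siIPO8-NC replicate 2, and 5 without miR-552-3p replicate 1 or siIPO8-NC replicate 1. These numbers are of differences below 0. The calls of RPL35, RPS14 and RPL27 held in all 8 of these fits.

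The importin8 siRNA alone was the third comparison, siIPO8-NC against NC, which shares its NC libraries with the first. Of the 77 genes 34 rose and none fell in edgeR's quasi-likelihood test, with 50 at an unadjusted p under 0.05, while 47% of all genes tested were called, 25.4% higher and 21.6% lower. The median log2 fold change was 0.27, a fold of 1.2, and 0.00 over all genes tested. Both siIPO8-NC libraries were above both NC libraries for 60 genes and below both for 0, where 37.1% and 36.4% of all genes tested were. In the large subunit 24 of 46 rose (median 0.28), and in the small subunit 10 of 31 (median 0.23). Without siIPO8-NC replicate 1 the count was 10, without siIPO8-NC replicate 2 it was 17, without NC replicate 1 it was 66 and without NC replicate 2 it was 18. RPL19, RPL27, RPL35, RPS10, RPS14 and RPS25 were called in all 8 fits that left out 1 library.

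RPS18 had 401 and 380 CPM in siIPO8-NC, against 312 and 224 CPM in NC, a log2 fold change of 0.54 (SE 0.14; edgeR adjusted p = 0.015). RPL35 had 289 and 294 CPM in siIPO8-NC, against 218 and 185 CPM in NC (0.53; edgeR adjusted p = 0.00063). RPL21 rose by 0.51, RPS12 by 0.47 and RPS10 by 0.44. The first 2 genes are separated between the groups, with wide NC replicates for RPS18. RPL3 had 1160 and 1098 CPM in siIPO8-NC, against 995 and 776 CPM in NC, and rose by 0.35, and RPSA had 468 and 427 CPM in siIPO8-NC, against 366 and 318 CPM in NC, and rose by 0.39. The siIPO8-NC libraries were also above both miR-552-3p libraries for RPL3, at 1028 and 959 CPM there, and overlapped them for RPSA. The calls of RPS18, RPL21, RPS12, RPL3 and RPSA did not hold in every fit that left out 1 library. The lowest values, none called, were those of RPS27 and RPS19 at -0.05, RPL28 at -0.01, RPL23 at 0.02 and RPL13 and RPL13A at 0.03.

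**Figure D5:**
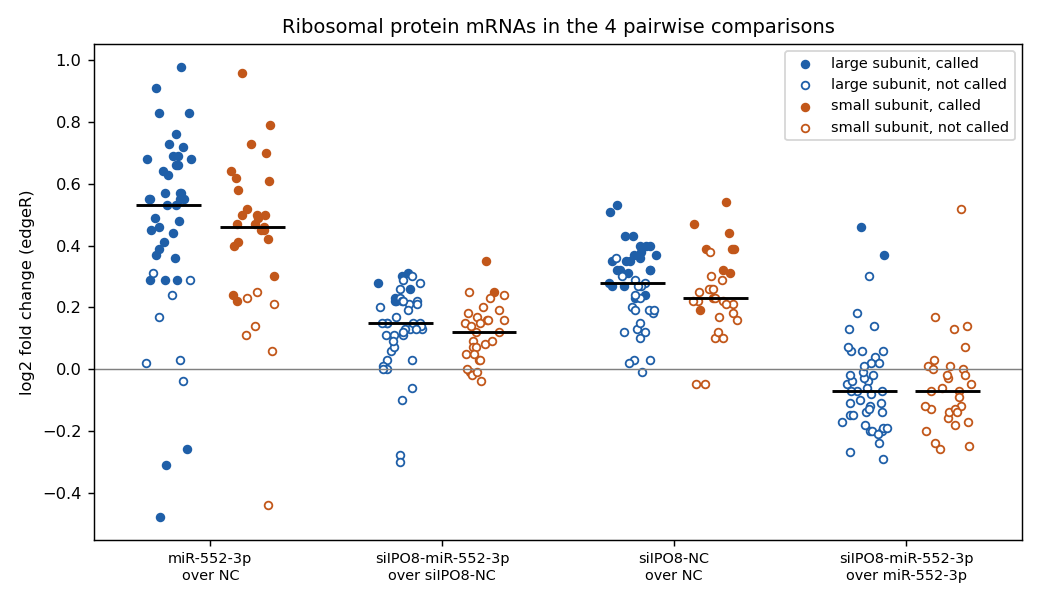
The vertical axis gives the log2 fold change of each gene in the 4 pairwise comparisons, coloured by subunit, filled where edgeR's adjusted p was under 0.05, with a black line at each subunit's median. The medians of both subunits lie highest for miR-552-3p over NC, at 0.53 and 0.46, and at -0.07 for siIPO8-miR-552-3p over miR-552-3p.

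The importin8 siRNA in cells with the mimic was the last comparison, siIPO8-miR-552-3p against miR-552-3p, which shares its miR-552-3p libraries with the first. Only RPL30 and RPL31 rose, none fell, and 75 of 77 genes were not called, with 5 at an unadjusted p under 0.05. Over all genes tested 33.5% were called, 17.3% higher and 16.2% lower. The median log2 fold change was -0.07. Both siIPO8-miR-552-3p libraries were below both miR-552-3p libraries for 36 genes and above both for 9, where 34% and 33.8% of all genes tested were. Fits without either NC library called 11 genes lower and 4 higher, a fit of the 4 libraries alone called 13 lower and 4 higher, and DESeq2 called 4 lower.

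RPL30 had 215 and 228 CPM in siIPO8-miR-552-3p, against 171 and 151 CPM in miR-552-3p, a log2 fold change of 0.46 (SE 0.12; edgeR adjusted p = 0.014). Its value was 0.38 to 0.55 in fits that left out 1 library, and its call did not hold in all of them. RPL31 had 265 and 278 CPM in siIPO8-miR-552-3p, against 216 and 205 CPM in miR-552-3p (0.37, SE 0.08; edgeR adjusted p = 0.0049), and its call held in all 8 fits that left out 1 library. Neither gene's groups overlap. RPS28 had the highest value, 0.52, from few counts, and did not pass, nor did RPLP0 at 0.30 and RPL3 at 0.18. The lowest values, none called, were RPL8 at -0.29, RPLP2 at -0.27, RPS15 at -0.26, RPS18 at -0.25 and RPL7 at -0.24, with RPS4X also at -0.24.

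Relatives of these genes that the naming rule leaves out were measured beside them. As background for these and the lists below, the mimic under control siRNA called 28.9% of all genes tested higher and 29.5% lower. The mimic under importin8 siRNA called 15% and 16.7%, and importin8 siRNA alone 25.4% and 21.6%. Importin8 siRNA in mimic cells called 17.3% and 16.2%, and the difference between the mimic effects 14.2% and 17.1%. Calls in these lists are given without fits that leave out 1 library. FAU, which encodes a small subunit protein fused to a ubiquitin-like protein, rose with the mimic under control siRNA by 0.85 on the log2 scale. FAU had 194 and 179 CPM in miR-552-3p, 165 and 172 in siIPO8-miR-552-3p, 147 and 145 CPM in siIPO8-NC, and 111 and 95.2 CPM in NC, with miR-552-3p highest and NC lowest. Of 7 tested relatives, 6 rose and none fell in that comparison (median 0.53), 2 rose with the mimic under importin8 siRNA, and the difference between the mimic effects was called below 0 for FAU at -0.65 and RPL7L1 at -0.53. With importin8 siRNA alone 4 rose, RPL22L1 at 0.85 and FAU at 0.50 the most, and RPS27L, a relative of RPS27, fell by 0.70.

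Other messages with a TOP start, for elongation and initiation factors and their partners, were a list of 19 tested genes. With the mimic under control siRNA 12 rose and none fell (median 0.35), led by NPM1, a nucleolar chaperone of ribosome assembly, at 0.76 and EIF3H at 0.75. RACK1, which sits on the small subunit, had 1204 and 1183 CPM in miR-552-3p, against 842 and 682 CPM in NC, with no overlap. Of the same list 1 rose with the mimic under importin8 siRNA, NPM1 at 0.29. With importin8 siRNA alone, which called 47% of all genes tested, 8 rose and 1 fell, EEF1B2 at 0.52 and EIF4A2 at -0.26. With importin8 siRNA in mimic cells 1 rose and 3 fell, and 6 mimic effects were called smaller under importin8 siRNA. Of 6 tested noncoding hosts of small nucleolar RNAs, GAS5 rose by 0.75 and SNHG12 by 0.38 and SNHG5 fell by 0.55 in the first comparison. None was called in the second. Over all genes tested 58.4% were called in the first and 31.7% in the second.

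Among 16 genes of mTORC1, LARP1 and MYC, 8 rose and 3 fell with the mimic under control siRNA (median 0.25). Of all genes tested 28.9% rose and 29.5% fell there. EIF4EBP2, a repressor of cap-dependent translation, had 24.2 and 26.9 CPM in miR-552-3p, 49.3 and 47.1 in siIPO8-miR-552-3p, 148 and 149 CPM in siIPO8-NC, and 156 and 167 CPM in NC. Both mimic groups lie far below both groups without the mimic, with log2 fold changes of -2.66 and -1.63. Its paralog EIF4EBP1 rose by 0.98 and 0.43 in the same comparisons and RHEB, the activator of mTORC1, by 0.90 and 0.39. LARP1 fell by 0.22 in the first (edgeR adjusted p = 0.048), and MLST8 fell by 0.58. With importin8 siRNA alone 5 rose and 3 fell, MYC at 1.09 and AKT1S1 at -0.69, a share near the 47% of all genes tested called there. In mimic cells 3 rose and 4 fell, where 33.5% of all genes tested were called.

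Among 14 importins and chaperones of ribosomal proteins, 8 rose and 2 fell with the mimic under control siRNA (median 0.38), where 58.4% of all genes tested were called. PDCD2L rose by 1.06 and BCCIP, a chaperone of RPL23, by 0.90, and TSR2, the chaperone of RPS26, had 4.53 and 3.67 CPM in miR-552-3p, against 7.11 and 6.92 CPM in NC, and fell by 0.77. Under importin8 siRNA the mimic raised 5 and lowered 1, PDCD2L at 0.47 and IPO9 at -0.37. With importin8 siRNA alone 11 rose and none fell (median 0.38), GRWD1, the chaperone of RPL3, at 0.81 and IPO5 at 0.79. IPO5 had 412 and 390 CPM in siIPO8-NC, against 249 and 214 CPM in NC, with the groups far apart. In mimic cells importin8 siRNA raised 4 and lowered none, TSR2 at 0.75 the most.

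In the arm that links 5S ribonucleoprotein assembly to MDM2, 6 of 8 tested genes rose with the mimic under control siRNA (median 0.79) and none fell. Of all genes tested 28.9% rose and 29.5% fell there. RPF2, an assembly factor for the 5S particle, had 70.4 and 65.1 CPM in miR-552-3p, 75.1 and 74.3 in siIPO8-miR-552-3p, 56.2 and 50.3 CPM in siIPO8-NC, and 25.6 and 20.0 CPM in NC. All 3 treated groups were above NC, and the mimic effects were 1.57 with control siRNA and 0.49 with importin8 siRNA. CDKN1A, which encodes the cell cycle inhibitor p21, had 366 and 329 CPM in miR-552-3p, 150 and 144 in siIPO8-miR-552-3p, 102 and 86.5 CPM in siIPO8-NC, and 98.4 and 91.6 CPM in NC, and the mimic effects were 1.87 and 0.64. MDM2 rose by 1.05 in the first comparison and by 0.85 with importin8 siRNA alone, while MDM4 at 0.02 did not pass in the first. Under importin8 siRNA the mimic raised 4 and lowered none, importin8 siRNA alone raised 5, and 6 of the 8 had a smaller mimic effect under importin8 siRNA, CDKN1A at -1.23 and RPF2 at -1.08.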

How the data were processed

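Poly(A) RNA was read as single-end reads of 50 bases, per the labels' protocols. Per the file headers the deposited table gives 2 values for each gene and library, a read count and an expression value. The deposited read counts are fractional for many genes, so per the file headers and values they are estimated counts, not whole reads. The authors' expression column was taken as FPKM from its values. Set against the count, it implied nearly the same message length in all libraries for most of these genes. The largest spread was 1.41-fold, at RPS28. It was 1.18-fold for RPL9 and RPL13 and 1.16-fold for RPS29, all 3 longest in the NC libraries. The part of these shifts in their values was not tested. The submitters' processing notes name HISAT2 2.0.4, Bowtie2 2.2.5, RSEM 1.2.8 and GRCh38.p12 without their roles. Use of strand in counting was not given in the sources used here. Each column was matched to a sample title by its abbreviated name, in which 51 and 52 were read as mimic replicates, with 0 columns of the table of 8 libraries left unused. Since no label says that replicates are separate cultures, the p-values reflect a spread between samples that could be technical. Replicates differed by more than counting noise (chi-square per degree of freedom 4.33 to 10.1).

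Counts were rounded, filtered with filterByExpr and scaled by TMM. All 8 libraries entered 1 quasi-likelihood fit with robust spread (edgeR 4.0.16, R 4.3.3), with group means, Benjamini-Hochberg adjustment over 17715 genes and a threshold of 0.05. Approximate SEs are the size of the log2 fold change divided by the root of F. CPM use TMM library sizes, and FPKM served for levels between genes. Other filters and scalings, DESeq2 1.42.0, limma 3.58.1 and left-out libraries were tried. The fitting procedure was run on simulated data with a common spread for all genes and few changed genes. That run cannot show how many calls are false in the real libraries. Deviations of same-numbered replicates had correlations of -0.01 to 0.1 between groups, so numbers were not used as pairs in the main fit. The ribosomal protein genes, however, leaned toward replicate 1 in every group but siIPO8-miR-552-3p. Of the 77 genes, 73 were higher in replicate 1 of NC, 69 with the mimic under control siRNA and 53 with importin8 siRNA alone. With mimic and importin8 siRNA together, 22 were higher. Counts from a fit with a replicate block are given below.

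The genes named are the 5 highest and 5 lowest per pairwise comparison (3 and 3 for the difference), the 5 highest and lowest by FPKM, a set fixed by role, and up to 2 called in each direction from other lists. Others, such as RPL23, RPS7, RPL27 and RACK1, were named after their values were seen. The genes and lists were chosen with earlier results of these data known. A few genes are counted but not reported by name here.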

Additional observations from a re-analysis of the deposited data

Results flagged for a closer look

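The mimic effect differed between the siRNA arms for 21 of the 77 ribosomal protein genes, all with a value below 0. The test was an interaction term in edgeR's quasi-likelihood test, adjusted over all genes tested. Of all genes 31.3% differed, 14.2% with a value above 0 and 17.1% below 0. On the log2 scale, the effect with importin8 siRNA minus that with control siRNA was -0.80 for RPS18, -0.70 for RPL35, -0.63 for RPL7, -0.60 for RPS10, -0.56 for RPS14, -0.55 for RPS15, -0.54 for RPL32 and RPL8, -0.52 for RPL24, -0.51 for RPL36 and -0.50 for RPL11. It was -0.47 for RPL19 and RPL26, -0.45 for RPL29, -0.44 for RPL17, -0.42 for RPL14, -0.39 for RPL27, -0.36 for RPS25, -0.35 for RPS7, -0.34 for RPL37 and -0.27 for RPL39. With 2 libraries per group, no search for single outlying samples was made.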

How the results depend on the processing

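With the mimic under control siRNA, 11 other filters, scalings, tools and fits gave 52 to 64 genes higher, 2 to 3 lower and medians of 0.42 to 0.49, and fits without 1 library each gave 0 to 3 lower. With the mimic under importin8 siRNA, the number higher was 3 with library totals, 15 with DESeq2, 2 with log2(FPKM + 1) or log2(FPKM + 0.1) in limma, 38 with the contrasted libraries alone and 1 to 28 without 1 library. The number lower there was 2 with library totals, DESeq2, log2(FPKM + 0.1) and the contrasted libraries alone, 1 with log2(FPKM + 1) and 0 to 2 without 1 library. For importin8 siRNA alone the number higher was 21 with upper-quartile factors, 22 with the contrasted libraries alone and 10 to 66 without 1 library. For importin8 siRNA in mimic cells it was 4 higher and 13 lower with the contrasted libraries alone, 4 lower with DESeq2, 1 lower with library totals and with both FPKM settings, and 1 to 4 higher and 0 to 11 lower without 1 library. The called differences numbered 13 with upper-quartile factors, 32 with DESeq2 and 5 to 59 without 1 library, with 0 to 1 upward. A replicate block gave 1 gene lower with the mimic under importin8 siRNA, 3 lower for importin8 siRNA in mimic cells, and otherwise counts within 1.5 times those reported (63, 12, 49 and 2 higher and 31 differences). The share of counts was 4.07, 3.78, 3.7 and 3.24% in miR-552-3p, siIPO8-miR-552-3p, siIPO8-NC and NC without the gene with the most counts, and 12.2, 11.6, 11.4 and 10.2% of summed FPKM. Signs turned only for values that were not called. With the mimic under control siRNA, RPLP0 was 0.13 with pseudogene counts added and -0.2 to 0.13 without 1 library, and RPS28 -0.87 to 0.19. Under importin8 siRNA the mimic effect on RPL9 was -0.13 to 0.03. For importin8 siRNA alone RPL13 was -0.04 and RPL23 -0.05 with upper-quartile factors and RPL28 0.01 with FPKM, and without 1 library RPL13 was -0.12 to 0.19, RPL23 -0.18 to 0.24, RPL28 -0.1 to 0.09, and RPS19 and RPS27 each -0.14 to 0.05. Among the differences RPS28 was -0.2 to 0.87 and RPL30 0.0 to 0.34 without 1 library, and IPO8 was 0.05 with log2(FPKM + 1). The causes of these shifts were not tested. The ratios of the subunits, from pseudogene counts added or summed FPKM, were tried after seeing the data and lay between 1.34 and 1.42.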
